A study of Mus musculus with 43 samples.

Results

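Among 17 lung libraries of bleomycin mice given nintedanib, 5 carried fat transcripts and 12 held at most traces of them. The members were chosen by Adipoq, the gene for the fat cell hormone adiponectin: a library counted as holding fat transcripts where Adipoq reached 1 CPM (the usual scaling of a gene's raw count to the library's total) and as without them below that. The 5 libraries with Adipoq, nintedanib libraries 1, 5, 7, 8 and 14, are 5 of 43 libraries in the series. Because Adipoq in these libraries set the sets, differences between the 5 and the 12 are descriptions and carry no test. Tests were made in libraries of the other groups, which the rule did not use, and between all nintedanib and vehicle libraries, where the rule had sorted the nintedanib libraries.

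The series measured gene counts in the inferior lung lobe of mice by RNA sequencing. Its 3 groups were control mice given vehicle (CTRL, 10 libraries), bleomycin mice given vehicle (BLEO-IPF, 16 libraries) and bleomycin mice given nintedanib (17 libraries). Bleomycin, a DNA-breaking antibiotic, scars the lungs of rodents, and nintedanib inhibits the receptor tyrosine kinases of VEGF, FGF and PDGF. The labels name the vehicle of the bleomycin mice as that of nintedanib, do not name that of the control mice, and give no strain, sex, age, dose, route or day.

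A lung lobe meets its main bronchus, large vessels, nerves and lymphatics at the hilum, where white fat lies next to the airway wall. The wall of a large airway holds a surface epithelium of secretory, ciliated and basal cells over smooth muscle, cartilage and glands, and heart muscle cells sleeve the pulmonary veins of mice. Transcripts of such structures enter a bulk library in the measure in which they are in the piece of tissue that was lysed, and in bulk samples fewer cells of a type and less RNA per cell cannot be told apart.

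Totals ran from 13733700 to 18723538 counts in the 5 libraries with Adipoq and from 13324549 to 17986792 in the 12 without, so the depths overlapped. The 5 libraries detected 16449 to 17030 genes and the 12 detected 16395 to 16770. Library names fall into 3 number series whose meaning the labels do not give, called A, B and C here: libraries 1, 5, 7 and 8 belonged to A and library 14 to B, and the 12 others to A (9), B (1) and C (2). No pair of libraries of 1 group agreed within sampling noise, with a smallest chi-square per degree of freedom of 5.36 among 301 pairs.

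Adipoq stood at 58.5 CPM in nintedanib library 7, 8.22 in library 1, 3.95 in library 8, 3.2 in library 14 and 1.43 in library 5. In the 12 other libraries it ran from 0 to 0.564 CPM, with 16 counts in all against 1237 in the 5. Just inside the threshold lay library 5 with 24 counts and just outside it library 4 with 9 counts. Of the 12 libraries, 7 had no count at all, and a count of 0 allows a level of up to 0.16 to 0.225 CPM (3 counts of the total, for counting error only). In the same measure 8 of 10 control libraries and 0 of 16 vehicle libraries reached 1 CPM, with a control median of 12.5 CPM and a highest vehicle value of 0.327.

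Several white fat genes followed Adipoq in each of the 5 libraries. Cfd, which encodes the complement protease adipsin secreted by fat cells, stood at 388 CPM in library 7, 42.1 in library 1, 32.3 in library 8, 24.5 in library 14 and 8.38 in library 5, against 0 to 0.251 in the 12. The 12 libraries summed to 9 counts of Cfd and the 5 to 8100. Car3, the carbonic anhydrase abundant in fat and slow muscle, was at 374, 47.9, 26, 24.2 and 4.1 CPM in the same order of libraries, against at most 0.501. For both genes, and for Adipoq, the 5 libraries kept the same order, with library 7 highest and library 5 lowest.

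Plin1, the coat protein of the fat cell's lipid droplet, was at 57.2, 5.29, 3.77, 2.69 and 1.31 CPM in libraries 7, 1, 8, 14 and 5, and between 0 and 0.752 in the 12. Pck1, the glyceride and glucose synthesis enzyme phosphoenolpyruvate carboxykinase, reached 135 CPM in library 7, 6.52 in library 1, 3.83 in library 8, 2.18 in library 14 and 0.357 in library 5, against at most 0.225. None of the values of these 2 genes in the 5 libraries fell into the range of the 12. Pck1 did not reach 10 counts in 5 libraries and so stayed out of the counts of genes below, as did 6 of the 24 white fat genes in all.

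**Figure D1:**
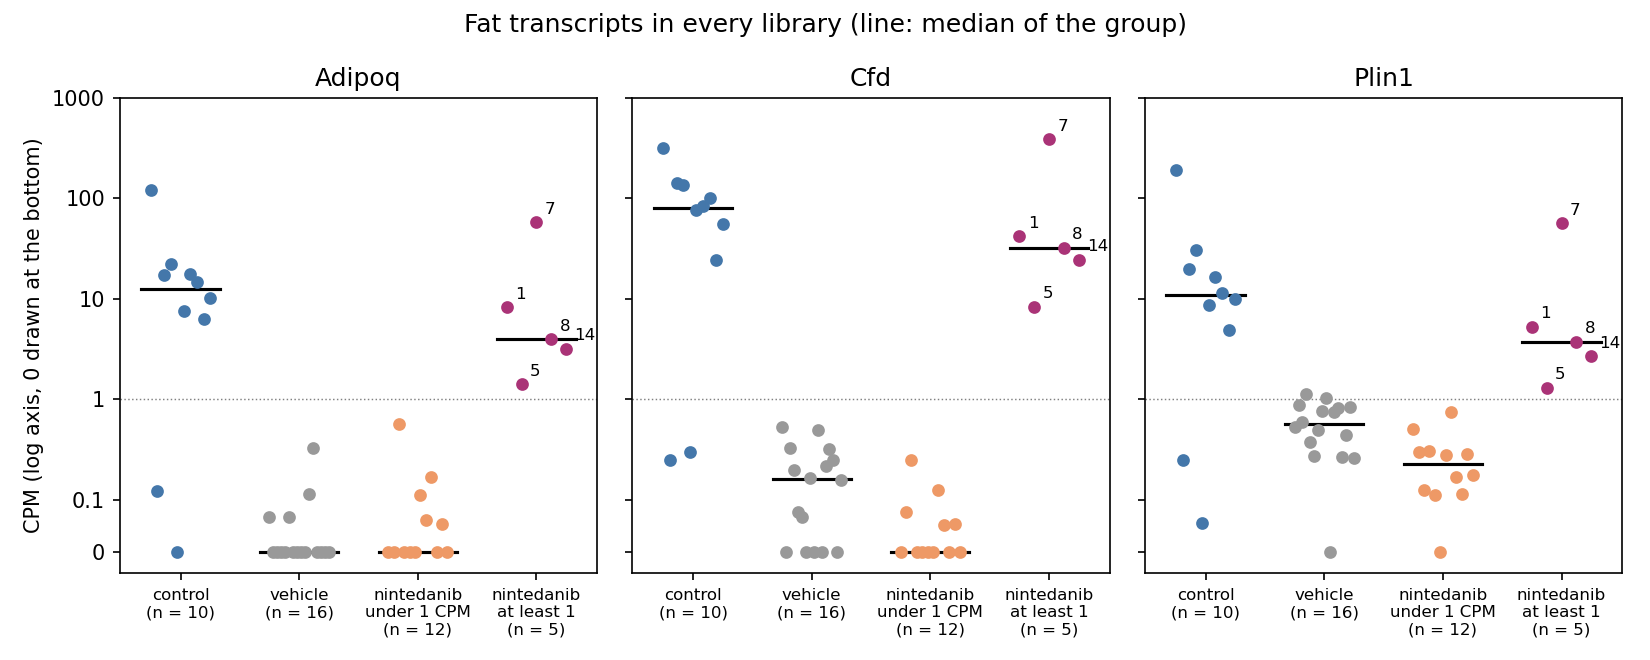
CPM of Adipoq, Cfd and Plin1 (log axis, values of 0 drawn at the bottom) in each of 43 libraries, by group, with the nintedanib libraries divided at 1 CPM of Adipoq (dotted line) and the 5 above it numbered. Each point is 1 library and each line a group median. The 5 numbered libraries lie above the 12 others for all 3 genes, and library 7 lies highest.

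Lpl and Cidec, fat genes that other lung cells also use, did not separate the sets. Lpl, the lipoprotein lipase of fat, muscle and macrophages, was at 202, 496, 361, 440.5 and 281 CPM in libraries 1, 5, 7, 8 and 14, against 299.8 to 523 in the 12. Cidec, a lipid droplet fusion protein, ran from 4.62 to 63.1 CPM in the 5 and from 2.16 to 13.4 in the 12. In both genes the ranges overlapped. Of the 18 white fat genes past the filter, 3 (Cfd, Car3 and Plin1) lay above all 12 libraries in all 5, beside 0.122% of all genes. The list's median difference in mean log2 CPM (with minus without) was 1.10, against 0.00 for all genes.

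Genes of brown fat, which burns lipid for heat, were low and mostly positive in difference. Of 16 such genes 10 passed the filter, 9 of them with a positive difference, and the list's median difference was 0.71. None lay above all 12 libraries in all 5, and Prdm16, a regulator of brown fat identity, lay below them. Slc27a2, a fatty acid transporter, lay above the 12 without library 5, beside 1.61% of all genes. Cox8b, a cytochrome oxidase subunit of brown fat, heart and skeletal muscle, was at 8.8 CPM in library 7, 4.51 in library 14, 1.64 in library 8, 1.5 in library 1 and 0.416 in library 5, against 0.219 to 1.49 in the 12. Ucp1, the uncoupling protein that defines brown fat, was at most 0.16 CPM in the 5 and 0.251 in the 12.

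Of 14729 genes past the filter of 10 counts in at least 5 of the 17 libraries, 18 (0.122%) lay higher in all 5 libraries than in any of the 12 and 22 (0.149%) lay lower. Scaled by library totals instead of TMM factors the split was 22 and 11. Left out in turn, libraries 5, 1, 4 and 13 moved the sum of 40 genes (0.272%) to 446 (3.03%, with 237 or 1.61% higher and 209 or 1.42% lower), 110, 63 and 63. Since filter and scaling stayed the same, leaving out a library can only keep or raise that sum. At a threshold of 2 CPM, which puts library 5 with the others, it was 427 (2.9%, with 229 or 1.55% higher and 198 or 1.34% lower). Within number series A, with 4 libraries against 9, it was 69.

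Besides the 4 fat genes the 18 held Cyp2e1, a drug-metabolising cytochrome of liver and fat, and Pigr, the receptor that carries antibodies across epithelium. Cyp2e1 stood at 103 CPM in library 7, 12.6 in library 1, 8.87 in library 8, 8.08 in library 14 and 2.85 in library 5, and its highest value among the 12 was 2.87 before TMM scaling. Pigr was at 74.2, 81.3, 86.4, 71.1 and 64.9 CPM in libraries 1, 5, 7, 8 and 14, against 26.2 to 57. Library 5 was thus the lowest of the 5 for Cyp2e1 and the second highest for Pigr.

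The rest of the 18 were 8 genes with small differences and 4 genes of low level (Kcne3, Avpr1a, Sbspon and Slco1a5). Bdh1, a ketone body dehydrogenase, differed by 0.67 in mean log2 CPM, Sdcbp2 by 0.54, Tmem160 by 0.34 and Bckdhb, a subunit of branched-chain amino acid breakdown, by 0.34. Vdac3, a mitochondrial outer membrane channel, Dnajc19, a co-chaperone of mitochondrial import, Tuba1a, an alpha-tubulin, and Coq2, an enzyme of ubiquinone synthesis, differed by 0.28, 0.26, 0.25 and 0.24. In all 8 the lowest of the 5 libraries lay close to the highest of the 12, as for Tuba1a with 259.6 CPM in library 5 and 263 CPM at most in the 12, an order that TMM scaling turned.

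The 22 lower genes differed less. Map3k9, a kinase upstream of JNK, was at 36.7, 36.7, 37.9, 32.8 and 21.5 CPM in libraries 1, 5, 7, 8 and 14, against 39 to 53.6 in the 12, a difference of -0.54 in mean log2 CPM. Sel1l3 differed by -0.45 and the kinesin light chain gene Klc3 by -0.45. Prdm16 was among the 22 with -0.21. In the 10 control libraries described below, 0 of these 22 genes fell with Adipoq by the edgeR test, where 1 of 14491 genes (0.0069%) fell in all, and 4 of the 17 higher genes other than Adipoq rose, where 38 (0.262%) rose in all.

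Large-airway transcripts accompanied fat in 4 of the 5 libraries. Bpifa1, a secreted defence protein of the upper airway and large bronchi, stood at 2344 CPM in library 1, 1411 in library 7, 1192 in library 14 and 378 in library 8, but at 0.0594 in library 5, which is 1 count. The 12 other libraries ran from 0 to 32.5 CPM with a median of 0.94. Libraries 1, 7, 8 and 14 lay above the range of the 12, and library 5 lay near its lower end.

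Bpifb1, of the same protein family, repeated this with 414 CPM in library 14, 223 in library 7, 124 in library 1, 102 in library 8 and 0.357 in library 5, against at most 4.13 in the 12. Reg3g, an antibacterial lectin, was at 106, 102, 98.3 and 56.6 CPM in libraries 1, 14, 7 and 8 and at 0 in library 5, against at most 1.55. Scgb3a1, a secretoglobin of large-airway secretory cells, was at 319, 269, 172 and 61.8 CPM in libraries 14, 7, 8 and 1, 0.832 in library 5 and at most 56.1 in the 12. The order of the 4 libraries differed from that of the fat genes: library 7 led for fat, library 1 for Bpifa1 and library 14 for Bpifb1 and Scgb3a1.

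The secretory gene of the small airways did not divide the sets. Scgb1a1, the club cell secretoglobin made along the whole airway tree, was at 14017, 10284, 15136, 15344 and 11545 CPM in libraries 1, 5, 7, 8 and 14, against 8124 to 19054 in the 12, so the ranges overlapped. Over the 19 secretory genes, 1 (Pigr) lay above all 12 in all 5 libraries and 12 did so once library 5 was left out, beside 1.61% of all genes. The list's median difference was 2.03 with library 5 and 2.62 without it.

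**Figure D2:**
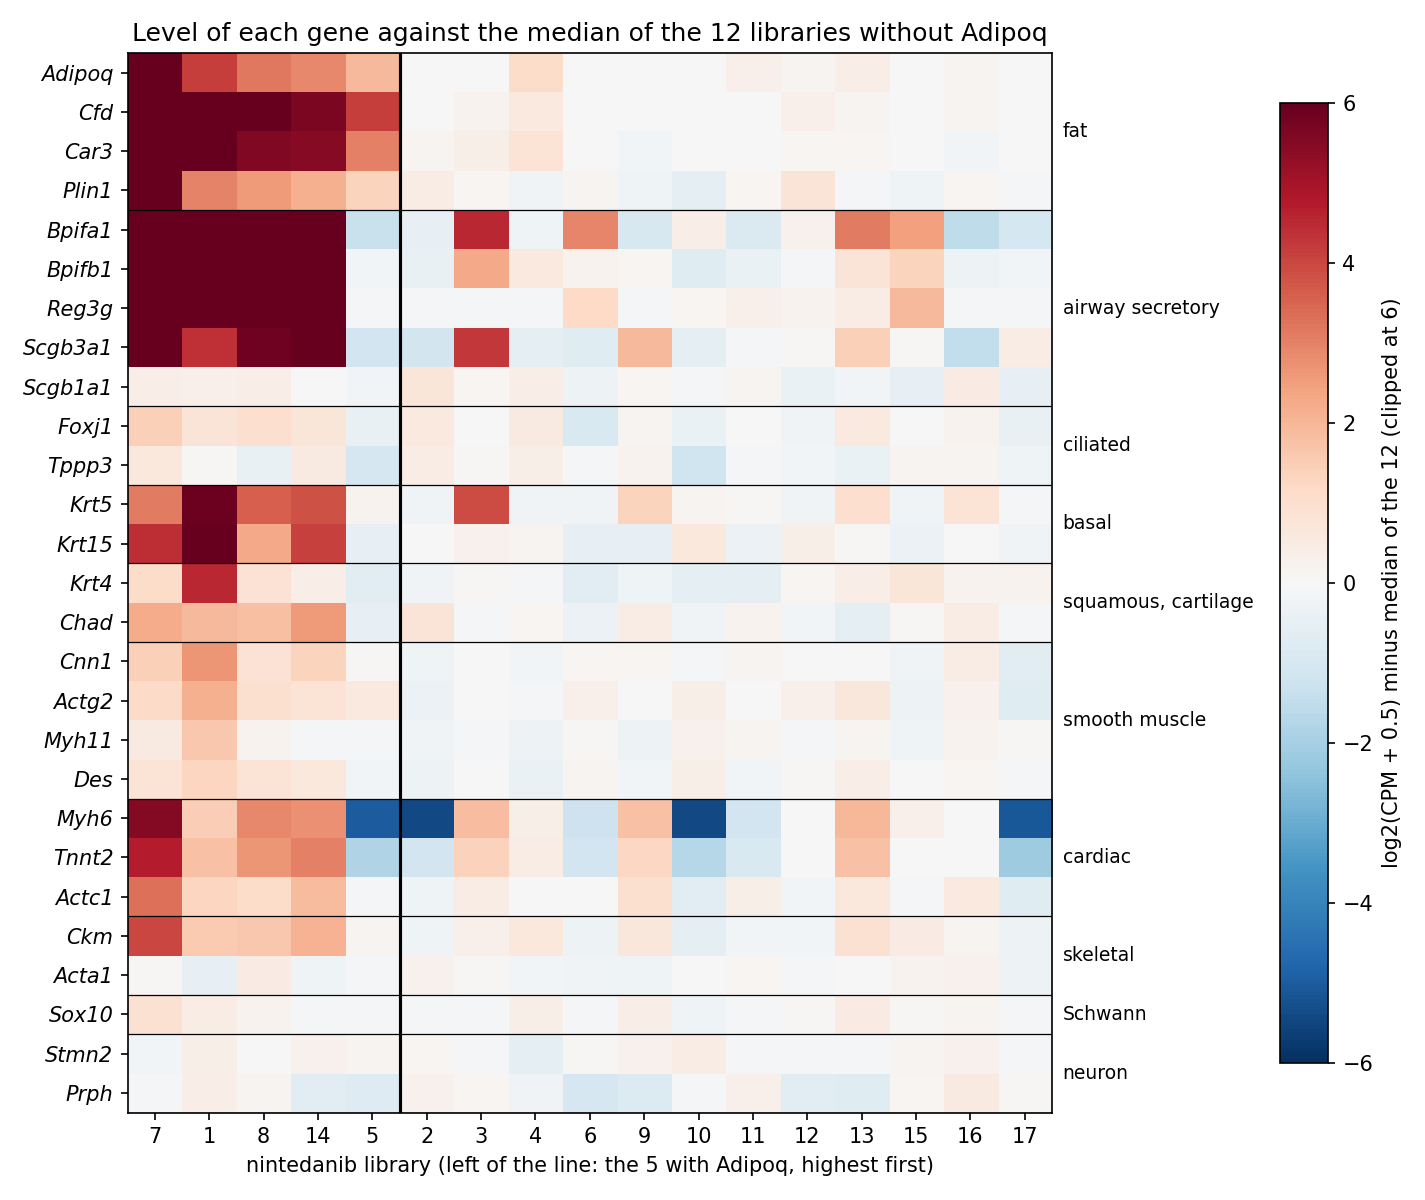
Level of genes of 10 kinds in the 17 nintedanib libraries, as log2(CPM + 0.5) minus the gene's median over the 12 libraries without Adipoq, clipped at 6. Columns left of the thick line are the 5 libraries with Adipoq, highest first. Library 5 is red for the fat genes and near or below the median for Bpifa1, Bpifb1, Reg3g and Scgb3a1, whereas libraries 7, 1, 8 and 14 are red for both.

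A few ciliated cell genes lay above the 12 in the same 4 libraries. Summed over 22 genes, the level was 1671, 1389, 1091, 1004 and 457 CPM in libraries 7, 14, 1, 8 and 5, against 448 to 1169.7 in the 12, so only libraries 7 and 14 exceeded them. Foxj1, the transcription factor that commits cells to motile cilia, was at 235 CPM in library 7, 174 in library 8, 148 in library 1, 144 in library 14 and 64.1 in library 5, against 45.7 to 131 in the 12 before scaling. Of 22 ciliated genes 0 lay above all 12 in all 5 libraries. Without library 5, 3 did (the axonemal genes Dnah5, Ccdc113 and Tekt1), beside 1.61% of all genes. The list's median difference was 0.56 with library 5 and 0.85 without it.

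Basal cell keratins were highest in library 1. Krt15 stood at 161 CPM there, at 16.6 in library 7, 13.1 in library 14, 3.34 in library 8 and 0.0595 in library 5, against at most 0.731 in the 12. Krt5, the keratin that defines basal cells, was at 34.2, 7.79, 6.56, 4.55 and 0.178 CPM in libraries 1, 14, 8, 7 and 5, and library 3 of the 12 reached 8.18, inside the range of the 5. Of 10 basal genes 4 (Krt15, Trp63, Ngfr and Aqp3) lay above all 12 without library 5, beside 1.61% of all genes. The list's median difference without library 5 was 1.89.

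Library 1 also carried transcripts that the other 4 lacked or held at lower levels. Krt4, a keratin of stratified mucosa, was at 22.1 CPM in library 1 and between 0.119 and 1.6 in libraries 5, 7, 8 and 14. Col2a1, the collagen of cartilage, was at 2.72 CPM in library 1 and between 0.218 and 0.369 in the other 4, within the 0 to 0.826 of the 12. Chad, chondroadherin, a cartilage matrix protein, was instead high in 4 libraries, with 38.6, 30.8, 24.9 and 22.3 CPM in libraries 14, 7, 1 and 8 and 4.16 in library 5, against at most 10.6. It was the 1 of 7 cartilage genes that lay above all 12 without library 5, beside 1.61% of all genes. Another 1 of the 7 lay below all 12 without library 5, beside 1.42% of all genes. Over the 5 libraries 5 of the 7 had a positive difference, with a median of 0.525. The list's summed level ran from 142 to 206 CPM in the 12. Libraries 1, 7, 8, 5 and 14 stood at 193, 167, 148.4, 148.1 and 140.5 CPM, so none lay above that range.

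Some smooth muscle genes were high in the libraries with airway genes. Cnn1, the contractile regulator calponin 1, was at 111 CPM in library 1, 47.4 in library 7, 45.1 in library 14, 31.9 in library 8 and 18.6 in library 5, against 11.2 to 23.8 in the 12. Actg2, the smooth muscle gamma-actin of visceral and airway muscle, was at 56.9, 27.7, 24.6, 22.1 and 18.7 CPM in libraries 1, 7, 8, 14 and 5, against 7.24 to 20.2. Library 5 thus lay inside the range of the 12 for both genes, at its upper end for Actg2. Of 20 smooth muscle genes 0 lay above all 12 in all 5 libraries. Without library 5, 8 did (Actg2, Cnn1, Des, Lmod1, Synpo2, Myl9, Chrm2 and Kcnmb1), beside 1.61% of all genes.

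The contractile genes that vessels and scar cells share with airway muscle overlapped. Acta2, alpha smooth muscle actin, was at 402 CPM in library 1 and 187 to 249 in the other 4, against 114 to 229 in the 12. Myh11, the smooth muscle myosin heavy chain, was at 384 CPM in library 1, 179 in library 7 and 116 to 142 in libraries 14, 5 and 8, against 101 to 148. Library 1 stood furthest above the 12 for both genes, followed by library 8 for Acta2 and library 7 for Myh11, and the other 3 libraries lay in the range of the 12. Des, the intermediate filament desmin, was at 232, 169.8, 168 and 148 CPM in libraries 1, 8, 7 and 14 and at 85 in library 5, against at most 124.

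Heart muscle genes were highest in library 7, the library with the most Adipoq. Myh6, the alpha heavy chain of cardiac myosin, stood at 966 CPM in library 7, 157 in library 8, 140.4 in library 14, 58.4 in library 1 and 0.178 in library 5. The 12 libraries ran from 0 to 83.4 CPM with a median of 20.8, so libraries 1 and 5 lay in their range and 3 of the 5 above it. Tnnt2, cardiac troponin T, was at 306, 94.7, 74.2, 38.9 and 2.91 CPM in libraries 7, 14, 8, 1 and 5, against at most 39.9. All 15 cardiac genes past the filter had a positive difference with a median of 1.84. Without library 5, 1 of them, Actc1, lay above all 12, beside 1.61% of all genes.

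Actc1, cardiac alpha-actin, stood at 253 CPM in library 7, 95.8 in library 14, 63.5 in library 1, 55.4 in library 8 and 23.7 in library 5, against 15 to 49.6 in the 12. Myl9, a regulatory light chain of smooth muscle myosin, was at 136, 124, 102, 95.3 and 65 CPM in libraries 1, 8, 14, 7 and 5, against 51.8 to 86.6. Both genes were high in 4 libraries and within the range of the 12 in library 5. Myl7, the atrial myosin light chain, was at 175, 70.6, 32.9, 14.5 and 8.86 CPM in libraries 7, 14, 8, 1 and 5, against at most 18.3, so library 1 overlapped too.

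These 3 muscle genes are shown with their promoter sequence because each holds a CArG box, the element bound by serum response factor in smooth and striated muscle genes. The stretches come from RefSeq's start sites on GRCm38.p6, are written on the strand of the gene, and carry the box in capitals. Actc1 lies at chr2:114052876-114052967 (minus strand), Myl7 at chr11:5898789-5898888 (minus strand) and Myl9 at chr2:156775258-156775357 (plus strand), and the box begins 47, 61 and 161 bases before the start of the transcript.
Actc1: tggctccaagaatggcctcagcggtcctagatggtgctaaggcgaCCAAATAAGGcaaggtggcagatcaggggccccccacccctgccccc
Myl7: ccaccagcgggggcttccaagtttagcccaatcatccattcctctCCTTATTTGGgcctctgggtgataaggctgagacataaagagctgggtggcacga
Myl9: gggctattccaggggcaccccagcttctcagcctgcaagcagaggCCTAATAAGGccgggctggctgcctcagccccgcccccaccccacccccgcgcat
In a search of the 250 bases before each start on both strands, 482 of 32851 promoters (1.47%) held the box. It was found for 2 of 15 matched cardiac genes, 1 of 17 smooth muscle genes, 2 of 17 skeletal muscle genes (Acta1 and Myh4), 1 of 12 airway secretory genes (Cbr2) and 0 of 16 white fat genes. These are counts of genes with the box before any of their starts, so they are not on the scale of the 1.47% of promoters. A match is a description of these letters and not a measured binding site.

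Skeletal muscle genes were mixed. Their summed level was 284 CPM in library 7, 112.1 in library 14, 95.1 in library 8, 89.4 in library 1 and 67.7 in library 5, against 61 to 95.4 in the 12, so libraries 7 and 14 lay above. The largest differences of the list were in Mb, Ckm and Ttn, which heart muscle also expresses. Mb, the oxygen store myoglobin, was at 74.1, 15.2, 8.45, 3.1 and 0.119 CPM in libraries 7, 14, 8, 1 and 5, against at most 3.75 in the 12. Ckm, the creatine kinase of heart and skeletal muscle, was at 11.6 CPM in library 7, 2.69 in library 14, 1.82 in library 8, 1.76 in library 1 and 0.357 in library 5, against at most 0.953. Ttn, the sarcomere spring titin, was at 98.8, 30.3, 22.3, 8.87 and 1.9 CPM in the same order, against 1.88 to 10.6. In all 3 genes library 7 was the highest and library 5 lay in the range of the 12.

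Tnnt3, the troponin T of fast skeletal muscle, was instead highest in library 1 with 10.3 CPM, and at 2.77, 2.55, 2.26 and 1.84 in libraries 7, 8, 14 and 5, against 0.681 to 2.55. Acta1, skeletal alpha-actin, was at 0.32, 0.535, 0.677, 1.09 and 0.437 CPM in libraries 1, 5, 7, 8 and 14, within or near the 0.409 to 0.866 CPM of the 12. Ckm was the 1 of 16 skeletal muscle genes that lay above all 12 without library 5, beside 1.61% of all genes. The list's median difference over the 5 libraries was 0.25.

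Nerve transcripts did not divide the sets. Sox10, the transcription factor of Schwann cells, reached at most 0.615 CPM in the 5 libraries and 0.336 in the 12, and the sets overlapped, with library 7 alone above the 12.

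Neuronal genes overlapped as well. Stmn2, a regulator of axonal microtubules, was at 36.2, 31.6, 25, 29.1 and 33.7 CPM in libraries 1, 5, 7, 8 and 14, against 19.6 to 38.6. Prph, the peripheral neurofilament peripherin, ran from 0.297 to 1.28 CPM in the 5 and from 0.186 to 1.49 in the 12. Of 12 Schwann cell genes and 5 neuronal genes past the filter, 0 lay above all 12 with library 5 or without it, and the median differences were -0.02 and 0.04. Of 21 neuronal genes 16 did not reach the filter.

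Of the cells on the lung surface, Msln, mesothelin, was at 518, 402, 269, 232 and 138 CPM in libraries 5, 8, 1, 14 and 7, against 114 to 543. The libraries with Adipoq stood on both sides of the median of the 12, which was 267 CPM. All 9 mesothelial genes had a positive difference, with a median of 0.12. Without library 5 it was 5 of the 9, with a median of 0.03. With or without library 5, 0 lay above all 12 libraries. Among mast cell genes Cma1, a connective tissue mast cell chymase, was at 3.42 and 2.52 CPM in libraries 1 and 7, 0.801 in library 14, 0.182 in library 8 and 0.178 in library 5, against at most 0.736. Of 4 mast cell genes past the filter 3 had a positive difference, and 0 lay above all 12 with library 5 or without it. The list's summed level ran from 118 to 175 CPM in the 12. Libraries 14, 5, 8, 1 and 7 stood at 198, 177, 160, 152 and 120 CPM. Pi16, a marker of fibroblasts around vessels and bronchi, was at 27, 25, 19.98, 13.1 and 6.24 CPM in libraries 7, 8, 1, 14 and 5, against 3.73 to 14.1, so libraries 14 and 5 overlapped. It had the largest difference of its list. Of the 12 genes of that list 6 had a positive difference, with a median of 0.04. Above all 12 libraries lay 0 of them, with library 5 or without it.

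Genes of the alveolar epithelium differed little, with the sign reversed. All 14 alveolar type 2 cell genes had a lower mean in the 5 libraries, with a median difference of -0.29, and 10 of 11 alveolar type 1 genes did, with a median of -0.24, where 7386 of 14729 genes (all past the filter) had a positive difference. Sftpc, the surfactant protein of type 2 cells, was at 17882, 25234, 19960.0, 14098 and 23527 CPM in libraries 1, 5, 7, 8 and 14, against 16146 to 30069. The sets overlapped for it, and library 8 alone lay below the 12. No alveolar gene lay below all 12 in all 5 libraries. Without library 5, 2 of the type 2 genes (Napsa and Lpcat1) did, beside 1.42% of all genes. Other cells of the gas exchange region did not share the sign. Of 19 capillary and endothelial genes 16 had a positive difference, with a median of 0.07. Of 13 alveolar fibroblast genes 6 did, with a median of -0.07.

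Fibrosis genes did not separate the sets. Col1a1, the main chain of type I collagen, was at 1322 CPM in library 8, the highest of the 17, and at 464, 465.8, 353 and 328 in libraries 1, 5, 7 and 14, against 298 to 989.7 in the 12. Spp1, osteopontin, a product of scar macrophages, was at 1856 CPM in library 5, again the highest of the 17, 1308 in library 8, 676 in library 7, 547 in library 1 and 432 in library 14, against 576 to 1789. The 5 libraries thus differed widely among themselves. The median difference was -0.12 over 21 fibrosis genes and -0.46 over 8 genes of scar macrophages (-0.66 without library 5), and 0 of them lay outside the 12 in all 5 libraries.

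Genes known from these data to be lower under nintedanib were also spread. Ptx3, a pattern recognition protein induced in inflamed tissue, was at 5.77, 2.62, 1.18, 0.583 and 0.369 CPM in libraries 8, 5, 1, 14 and 7, against 0.251 to 3.39. Spry4, a feedback inhibitor of receptor tyrosine kinase signals, was at 34.1 CPM in library 8 and between 11.8 and 19.7 in the other 4, against 11.1 to 28.6. Library 8 was the highest of the 17 for both. The list of 12 genes, chosen on these libraries, had a median difference of 0.07.

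**Figure D3:**
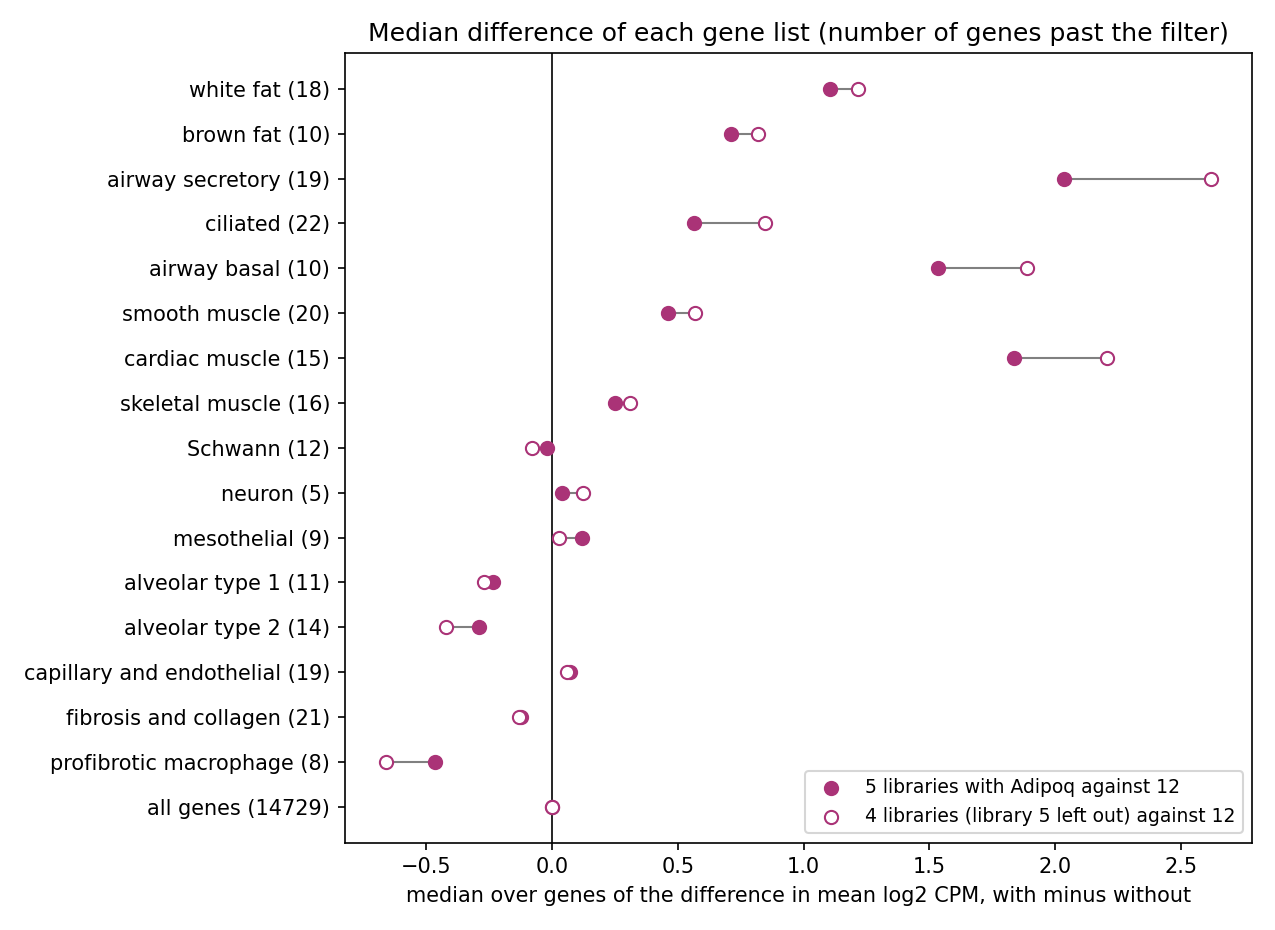
Median over the genes of each list of the difference in mean log2 CPM, libraries with Adipoq minus libraries without, for the 5 libraries (filled points) and for 4 with library 5 left out (open points). The number of genes past the filter stands in parentheses. The airway secretory, cardiac, airway basal and white fat lists lie furthest right, at 1.10 to 2.03 with library 5, the Schwann and neuron lists lie near 0, and the type 2 and scar macrophage lists lie left of it.

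Which genes go with Adipoq was tested in the 10 control libraries, which the rule did not use. Adipoq ran there from 0 to 123 CPM, with 123 in control library 1, 22.3, 17.6, 17.1 and 14.8 in control libraries 4, 7, 3 and 8, 10.2, 7.65 and 6.28 in control libraries 10, 6 and 9, and 0.123 and 0 in control libraries 2 and 5. For each gene the slope is the change in log2 CPM per unit of log2(Adipoq CPM + 0.5). By edgeR's quasi-likelihood test with Benjamini-Hochberg adjustment, 38 of 14491 genes (0.262%) rose with Adipoq and 1 (0.0069%), Specc1, fell, 39 (0.269%) in all.

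White fat genes led the rise. Of 21 white fat genes tested 10 rose, among them Plin1 with a slope of 1.25 ± 0.04 (SE, edgeR adjusted p = 1.52e-09), Pck1 with 1.71 and Car3 with 1.28. Cfd had a slope of 1.11 ± 0.16 (edgeR adjusted p = 0.0321), a call that was lost when any of 8 of the 10 libraries was left out (edgeR adjusted p up to 0.106). Of 10 brown fat genes 4 rose (Cidea, Dio2, Plin5 and Slc27a2), and Cyp2e1 rose with 0.64 ± 0.05 (edgeR adjusted p = 0.000249). By edgeR 0 of 19 airway secretory, 0 of 22 ciliated and 0 of 20 smooth muscle genes passed (2, 0 and 2 at an unadjusted p under 0.05), and DESeq2 called 6, 0 and 0. By both tools 0 of 15 cardiac and 0 of 14 skeletal muscle genes passed (0 and 0 at an unadjusted p under 0.05 by edgeR). Of 11 Schwann cell genes 1 rose, S100b, which fat cells also express.

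By edgeR, control library 1 decided which airway genes passed. It had the most Adipoq (123 CPM) with 2.7 CPM of Bpifa1, whereas control libraries 7, 4, 3 and 8, next in Adipoq, had 1240.0, 499, 412 and 381. Its Ucp1 was at 506 CPM, against at most 1.28 in the other 9 control libraries and at most 0.16 in the 5 nintedanib libraries. Cidea, a lipid droplet protein abundant in brown fat, was at 222 CPM there and between 0.694 and 7.2 in the 5. Of the 13 libraries in which Adipoq reached 1 CPM, nintedanib library 5 and control library 1 had the least Bpifa1.

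**Figure D4:**
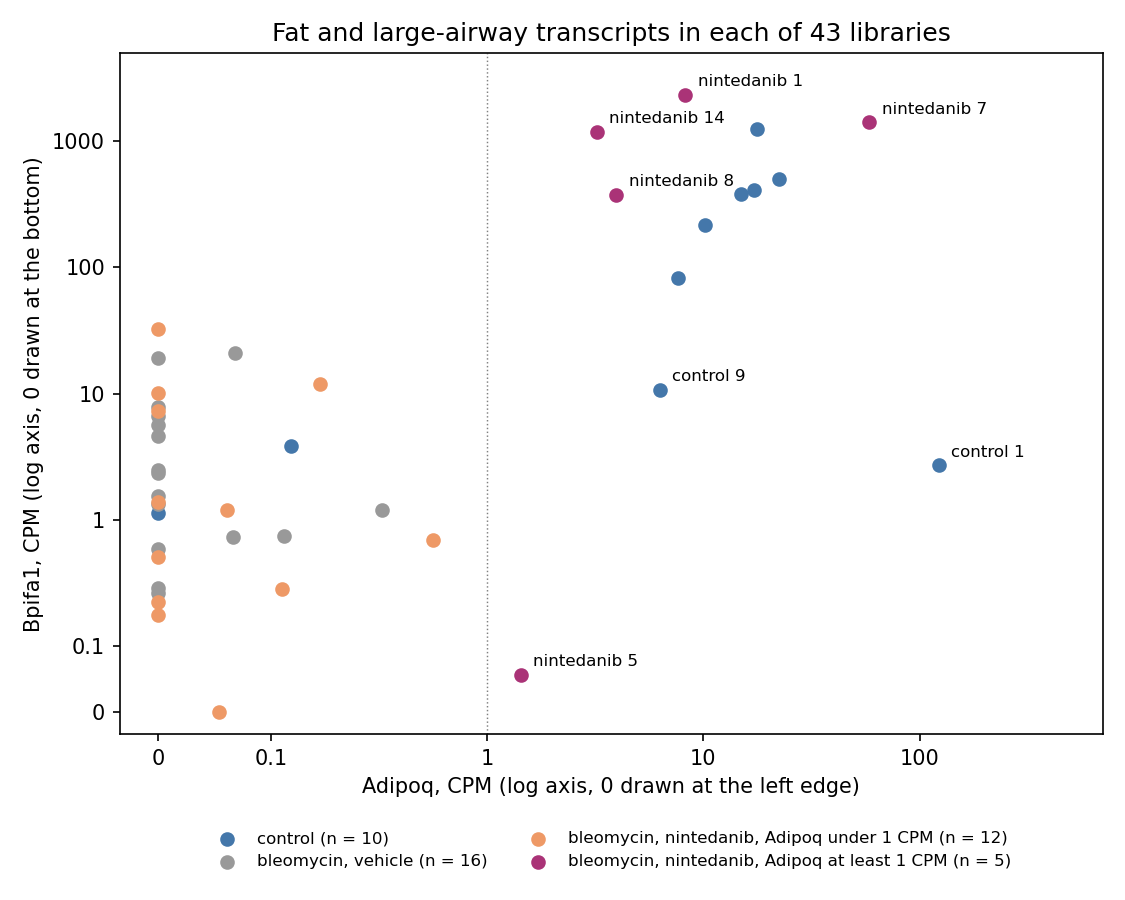
Bpifa1 against Adipoq, both in CPM on log axes with 0 drawn at the edge, in each of 43 libraries. Right of the dotted line (1 CPM of Adipoq) lie 5 nintedanib and 8 control libraries. Of these 13, nintedanib library 5 and control library 1 lie lowest, at 0.0594 and 2.7 CPM of Bpifa1.

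Without control library 1, 360 of 14443 genes (2.49%) rose with Adipoq and 40 (0.277%) fell, 400 (2.77%) in all. Of white fat genes 12 of 21 rose, of airway secretory genes 13 of 19, of ciliated genes 18 of 22 and of airway basal genes 2 of 8 (Krt15 and Aqp3). Bpifa1 had a slope of 1.75 ± 0.30 (edgeR adjusted p = 0.0311) over these 9 libraries, against 1.35 ± 0.57 (edgeR adjusted p = 0.578) over 10, where DESeq2 gave 1.44 (DESeq2 adjusted p = 5.59e-05). The call over 10 libraries thus rests on the tool as well as on that library. Of 38 genes that rose in the 10 libraries 26 rose here too, which is 26 of the 360.

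Of muscle and nerve, smooth muscle moved in part. Among 20 smooth muscle genes 3 rose without control library 1: Actg2 with 0.20 ± 0.04 (edgeR adjusted p = 0.0198), Myh11 with 0.13 ± 0.02 (edgeR adjusted p = 0.00267) and Acta2 with 0.10 ± 0.02 (edgeR adjusted p = 0.00509). At an unadjusted p under 0.05 there were 11 of the 20. None of 15 cardiac, 14 skeletal muscle, 11 Schwann cell and 4 neuronal genes passed by edgeR (1, 3, 3 and 1 at an unadjusted p under 0.05), and Myh6 had a slope of 0.26 (edgeR adjusted p = 0.653). Of the 228 genes other than Adipoq that lay above all others in the 4 nintedanib libraries where Adipoq passed 2 CPM, 225 were tested here and 82 rose. Of the 17 that lay above in all 5 libraries, 5 rose here and 4 in the 10 libraries.

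With Bpifa1 as a second covariate in the 10 libraries, 383 of 14491 genes (2.64%) rose with Adipoq and 4 (0.0276%) fell. Of white fat genes 19 of 21 and of brown fat genes 8 of 10 now rose, and 0 of the airway secretory, ciliated, smooth muscle and cardiac genes did by edgeR (0, 0, 1 and 0 at an unadjusted p under 0.05). Bpifa1 is itself on the airway secretory list and stands for large airway, so this fit cannot decide whether airway genes go with Adipoq. All 38 genes of the fit without Bpifa1 were among the 383. Without control library 1 and with Bpifa1, an alternative added after the data were seen, 1 gene of 14443 (0.00692%) rose, Plin1 with 1.45 ± 0.17 (edgeR adjusted p = 0.00574). In those 9 libraries Adipoq and Bpifa1 were highest in the same 4 (control libraries 3, 4, 7 and 8) and lowest in the same 2 (control libraries 2 and 5), so the genes that go with the one and with the other can hardly be told apart there.

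**Figure D5:**
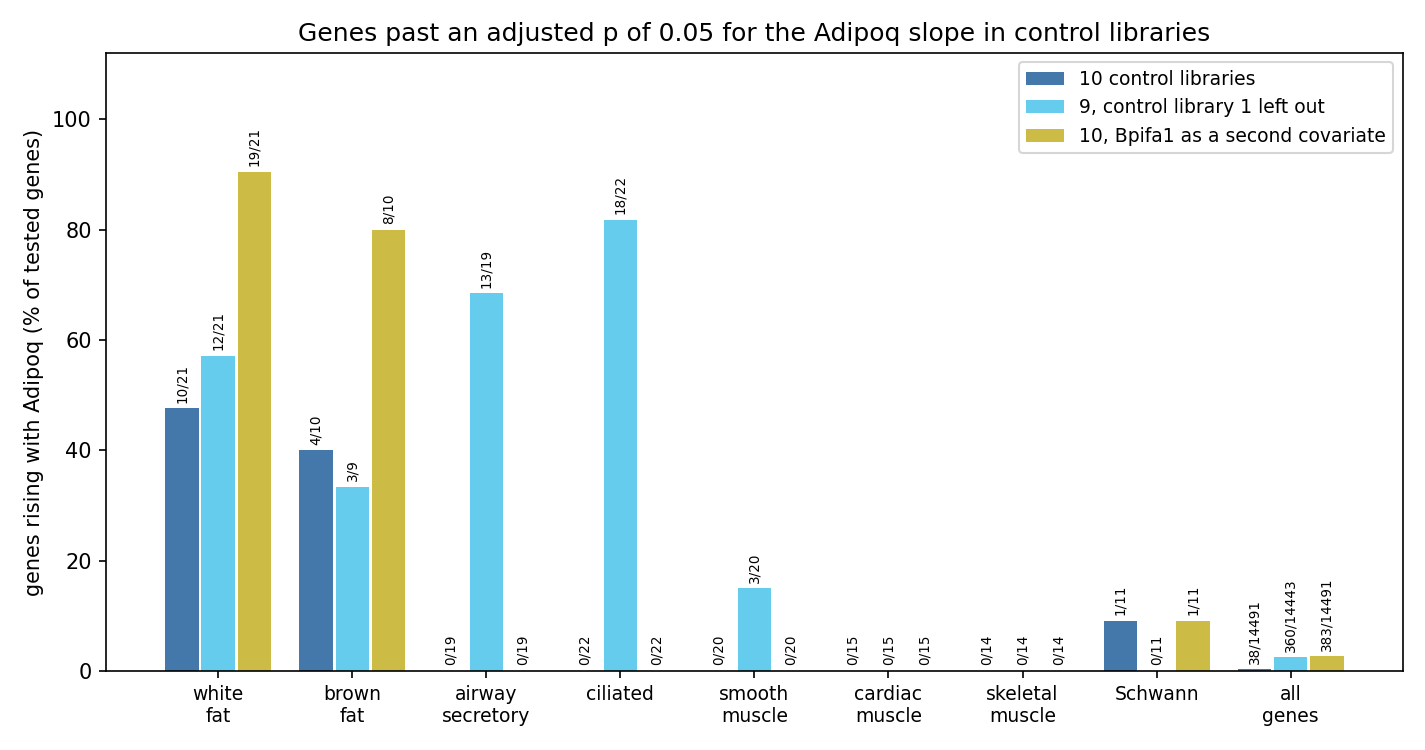
Share of the tested genes of each list that rose with Adipoq in control libraries at an edgeR adjusted p under 0.05, for all 10 libraries, for 9 without control library 1, and for 10 with Bpifa1 as a second covariate. Counts stand above the bars. Airway secretory and ciliated bars appear in the 9-library fit (13 of 19 and 18 of 22) and are at 0 in the others, and cardiac and skeletal muscle bars are at 0 in all 3. Bpifa1 is itself an airway secretory gene, so the fit with it cannot decide whether airway genes go with Adipoq.

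In the 16 vehicle libraries, all under 1 CPM of Adipoq, Bpifa1 ran from 0.262 to 20.9 CPM, and its slope asked what goes with large-airway transcripts where Adipoq is near 0. By edgeR's test 13 of 14676 genes (0.0886%) rose with Bpifa1 and 6 (0.0409%) fell. None belonged to the fat, airway, ciliated, muscle or nerve lists. At an unadjusted p under 0.05 there were 3071 of the 14676 genes, among them 21 of 22 ciliated, 11 of 14 alveolar type 2, 10 of 14 B cell, 7 of 11 alveolar type 1 and 7 of 16 white fat genes. Their directions differed. Over all tested genes of these lists, in the same order, the slope was positive in 21, 0, 13, 0 and 8, beside 7829 of the 14676. DESeq2 called 14, 6, 4, 4 and 2 genes of these lists at its adjusted threshold. Foxj1 had a slope of 0.30 ± 0.07 (edgeR adjusted p = 0.0702). The 13 included Cacna1h, a calcium channel subunit, and the plasma cell genes Jchain and Derl3, and the 6 included Fabp5, a fatty acid binding protein of macrophages. DESeq2 called 970 genes in place of 19, leaving out a single library gave 1 (vehicle library 3) to 171 (vehicle library 6), and series A alone gave 0 by edgeR with 2147 at an unadjusted p under 0.05, so these counts rest on the tool and on single libraries.

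The 5 libraries also bear on the comparison of nintedanib with vehicle. Over all 17 nintedanib libraries 476 of 14836 genes (3.21%) were higher than in vehicle libraries and 608 (4.1%) lower by edgeR's test. With the 12 libraries under 1 CPM of Adipoq alone, a set chosen by its fat transcripts, 458 of 14753 (3.1%) were higher and 561 (3.8%) lower, and 727 genes were called both times, of 1084 (7.31%) and of 1019 (6.91%). Left out singly, library 1 took the 1084 to 696 and library 8 to 1454.

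Over all 17 nintedanib libraries 6 of 20 white fat genes were higher than in vehicle (Plin1, Plin4, Retn, Cfd, Pck1 and Car3). Leaving out the 5 libraries chosen for Adipoq takes fat transcripts out by construction, so the loss of these calls (0 of 16 genes) is no result. Of them Cfd, Car3, Pck1 and Retn no longer passed the filter. Plin1 had a log2 fold change of 2.82 ± 0.86 (edgeR adjusted p = 0.0362), which library 7 decided: without it the value was 0.77 (edgeR adjusted p = 0.541). The call was also lost without library 1 (edgeR adjusted p = 0.0534), in series A (0.079) and with no filter (0.0536).

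Airway secretory genes, which the rule did not name but which accompanied Adipoq in 4 of the 5 libraries, were higher in 11 of 19 cases with the 5 libraries. Without them 0 of 18 were higher and 1, Muc5ac, was lower. Bpifa1 had a log2 fold change of 6.09 ± 1.27 (edgeR adjusted p = 0.00285) with the 5 libraries and 0.26 ± 0.88 (edgeR adjusted p = 0.893) without them. In those 4 libraries 12 of the 19 genes, Bpifa1 among them, lay above all nintedanib libraries kept. Leaving out the 5 thus takes large-airway transcripts out too, and this loss of calls is no separate result. The difference between the fits was not tested.

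Smooth muscle, mast cell and red cell lists lost calls too. Of 20 smooth muscle genes 5 were higher with the 5 libraries (Myh11, Cnn1, Lmod1, Synpo2 and Kcnmb1) and 1, Myh11, without them. Smtn, smoothelin, was lower both times, at -0.27 ± 0.08 (edgeR adjusted p = 0.0419) and -0.39 ± 0.08 (edgeR adjusted p = 0.00565). Myh11 was at 0.50 ± 0.13 (edgeR adjusted p = 0.0125) and 0.31 ± 0.09 (edgeR adjusted p = 0.0295). Of mast cell genes 3 of 6 were higher with them and 0 of 5 without, where 1 was lower (Ms4a2, a chain of the IgE receptor, at -1.34, edgeR adjusted p = 0.0318). Of 9 red cell and platelet genes 7 were higher with them and 1 without. All 9 had a positive log2 fold change both times, with medians of 0.72 and 0.60. At an unadjusted p under 0.05 there were 8 of them with the 5 libraries and 7 without. For smooth muscle these counts were 9 and 5, and for mast cells 4 and 1. Hba-a1, alpha-globin, whose reads a near-identical copy can share, was at 1049, 1004, 799.6, 653 and 385 CPM in libraries 5, 7, 14, 1 and 8, against 338 to 613 in the 12, and its part in these calls was not tested.

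Genes lower under nintedanib mostly passed both times. Of the 12 genes of that list, which was chosen on these libraries, 12 were lower with the 5 libraries and 11 without. Ptx3 had a log2 fold change of -2.43 ± 0.30 (edgeR adjusted p = 1.08e-06) with them and -2.70 ± 0.29 (edgeR adjusted p = 1.64e-07) without. Of 21 fibrosis genes and 15 cardiac genes 0 passed either way by edgeR. At an unadjusted p under 0.05 there were 2 fibrosis and 5 cardiac genes with the 5 libraries and 1 and 0 without them, and DESeq2 called 0 and 1 with them.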

How the data were processed

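Gene counts were measured in 43 lung libraries of mice, and each library was taken as 1 mouse. No label says whether samples came from separate animals, and the p-values cover the variation among these libraries. A single table of read counts (whole numbers, 21938 genes by 43 libraries) was deposited by the authors. The submitters' processing notes name the GRCm38 build, R 3.6.0 and STAR 2.7.0f without saying what each did. Which program counted the reads, with which annotation and strand option, is not given in the sources used here, so overlapping and antisense genes and near-identical copies (such as Hba-a1 and Tpsb2) are uncertain. Depth ran from 13138281 to 19111457 counts.

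CPM values are the raw count over the library's total. Sets were compared by mean log2 CPM (TMM factors, prior count 2), on 14729 genes with at least 10 counts in at least 5 of the 17 nintedanib libraries. A gene was counted as above or below where the TMM-scaled CPM of the sets did not overlap. Tests were quasi-likelihood F tests in edgeR (robust, two-sided, Benjamini-Hochberg adjusted over all tested genes, threshold 0.05), with 10 counts in at least 5 libraries for the slopes and filterByExpr over all 43 libraries for nintedanib against vehicle. Slope covariates were log2(CPM + 0.5). The gene whose slope was tested was left out of the counts, and Bpifa1 as a second covariate was kept in them. The code was checked on simulated counts.

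Alternatives were RLE factors, library totals, other filters, DESeq2, other thresholds and covariate scales, series A alone, and leaving out libraries. Versions were edgeR 4.0.16, DESeq2 1.42.0 and limma 3.58.1 in R 4.3.3, and Python 3.11.15, NumPy 2.4.6, pandas 2.3.3, SciPy 1.17.1 and Matplotlib 3.10.9.

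The members, the 28 gene lists (413 genes, of which 412 are in the table) and the tests were chosen with earlier results of these data known. Named genes are, among genes with sets that do not overlap and an average log2 CPM of at least 1, the 12 largest positive (10 qualified) and 8 largest negative differences. To these come up to 4 members with the largest difference and the most abundant member of each list, the 6 smallest p-values in each direction of each slope, and 30 genes given always. Genes named beside these were chosen after their values were seen. The values of some genes of the lists are not reported here, although the counts and medians over the lists include them. Promoters are from RefSeq on GRCm38.p6 and were matched by symbol. Identifiers were matched to GENCODE symbols.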

Additional observations from a re-analysis of the deposited data

Results flagged for a closer look

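Single libraries stood apart from the others of their set in 5 of 58 checks (29 genes in the 10 control libraries and in the 5 nintedanib libraries with Adipoq), and chance flags about 1 in 20. Among control libraries, Ucp1, the uncoupling protein of brown fat, stood at 506 CPM in control library 1 and at 0 to 1.28 in the other 9. Stmn2, the axonal gene, stood at 75.9 CPM in control library 5 and at 43.3 to 55.2 in the other 9. Among the 5 nintedanib libraries, Bpifa1 stood at 0.0594 CPM in library 5 and at 378 to 2344 in the other 4. Ucp1 stood at 0 in library 5 and at 0.122 to 0.16 CPM in the other 4, all at or below 3 counts. Col2a1, the cartilage collagen, stood at 2.72 CPM in library 1 and at 0.218 to 0.369 in the other 4.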

How the results depend on the processing

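Of genes that did not overlap between the sets (40), there were 427 and 424 at thresholds of 2 and 5 CPM and 69 in series A. Leaving out a library, which can only keep or raise this count, gave 41 to 446, led by library 5. The split of higher to lower genes was 20 to 20 with RLE factors and 22 to 11 with library totals. Of genes with an Adipoq slope in control libraries (39), there were 64 with no filter, 108 by DESeq2, 18 with log2(CPM + 0.1), 387 with Bpifa1 added, and 1 with Bpifa1 added and without control library 1 (added after the data were seen). Leaving out a control library gave 31 to 400, the latter without control library 1. Of genes with a Bpifa1 slope in vehicle libraries (19), there were 970 by DESeq2, 4 with log2(CPM + 0.1), 0 in series A (2147 at an unadjusted p under 0.05), and 1 to 171 without 1 library. Of genes called between nintedanib and vehicle (1084), 696 to 1454 were called without 1 of the 5 libraries. Plin1 turned from 2.82 to -1.16 without the 5 libraries, which their choice by Adipoq fixes. The cause of the other shifts was not tested. The other alternatives kept the counts within 1.5 times.

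No paired analysis was possible because the replicate numbers follow accession order and library names are unique. Leaving out each library without Adipoq, and each of the 5 in the comparison with vehicle, were alternatives added after the data were seen. Low fat and nerve genes were limited by depth, since 3 counts correspond to 0.16 to 0.225 CPM.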

Other observations

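Heart muscle and airway transcripts also varied among the 12 nintedanib libraries without fat transcripts. Myh6, the cardiac myosin gene, was at 83.4, 75.3 and 72.5 CPM in libraries 13, 3 and 9, at 0 in libraries 2 and 10 and at 0.117 in library 17. Bpifa1, the large-airway gene, was at 32.5 CPM in library 3, 11.9 in library 13 and 10.2 in library 6, and at 0 in library 16. Krt5, the basal cell keratin, was at 8.18 CPM in library 3 and at or below 1 in the 11 others. Library 3 thus carried heart, large-airway and basal transcripts with 0 counts of Adipoq.

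B cell genes had a slightly higher mean in the 5 libraries with Adipoq, with a positive difference in 13 of 14 genes. The median difference was 0.34 in mean log2 CPM, against 0.00 for all genes, and none of the 14 lay above all 12 libraries. Their summed level ran from 49.5 to 278 CPM in the 12, with a median of 143. Libraries 14, 7, 1, 8 and 5 stood at 453, 259, 155, 103 and 94 CPM, so only library 14 lay above that range. Of 14 immediate early genes 2 had a positive difference, with a median of -0.09. Neuroendocrine genes had a positive difference in 5 of 5 past the filter, with a median of 0.62 (1.31 without library 5). The list's summed level ran from 12.3 to 21.9 CPM in the 12. Libraries 7, 14, 8 and 1 lay above that range with 33.1, 30.7, 25.6 and 22.6 CPM, and library 5 lay below it with 11.6.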
